A study of Rattus norvegicus with 4 samples.

Results

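The genes of the nuclear pore and of the receptors that carry cargo through it were followed in 4 RNA-seq libraries of cultured rat neonatal cardiomyocytes, heart muscle cells taken at stage P3. The cells had received an adenovirus vector encoding mock, the control, or Pdk3, a pyruvate dehydrogenase kinase. Each group had 2 libraries (Mock 1 and Mock 2, Pdk3 1 and Pdk3 2). All 4 libraries therefore come from cells that were given a virus, and the labels name no promoter, dose or time after transfer. Nor do they say whether the libraries of a group came from separate cultures, so the p-values rest on a spread between libraries that may be technical. The members were the protein-coding rows of the deposited table whose symbol begins with Nup and a digit, Kpna, Kpnb, Xpo, Ipo, or Tnpo and a digit, together with Ran, Rangap1, Ranbp1, Ranbp2, Rcc1, Ndc1, Tpr, Pom121, Rae1 and Aaas. This gave 55 of 16290 genes. Of these, 54 reached a value of 10 in 2 or more libraries and were tested. The gene left out was Nup62cl, with values of 0 in 3 libraries and 1 in Pdk3 1.

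The nuclear pore is a large ring of proteins called nucleoporins set in the nuclear envelope. Its scaffold consists of an inner ring and outer rings held by transmembrane proteins, with filaments on the cytoplasmic face, a basket on the nuclear face and a central channel lined with flexible repeats. Importins and exportins bind cargo and cross the channel, and the small GTPase Ran, loaded with GTP in the nucleus and made to hydrolyse it in the cytoplasm, sets the direction of travel. In dividing cells the pores are taken apart in mitosis and rebuilt afterwards, Ran guides spindle assembly, and growing nuclei insert new pores in interphase.

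Values are gene-level read counts after the authors' normalisation and rounding, called normalised counts here. They summed to between 4448199 and 4476649 per library, which corresponds to about 4139000 to 4707000 reads in genes once the scaling is undone. As a check of the labels, Pdk3 stood at 396 and 411 in mock and at 1218 and 1177 with Pdk3. Any vector reads that map to this row cannot be told apart from reads of the endogenous gene. The libraries of a pair differed by less than counting noise would give, with a mean chi-square per gene of 0.597 for the mock pair and 0.598 for the Pdk3 pair, where counting noise alone gives 1. The spread between replicates was thus smaller than counting noise, and results were also taken with p held at or above the p of counting noise. None of the 42 marker genes of heart cell types in the table was at 0 in every library. Summed over their lists, macrophage markers stood at 1245 to 1320 in mock and 1001 to 1048 with Pdk3 (5 of 7 lower), endothelial markers at 929 to 967 and 868 to 882 (2 of 5 lower), smooth muscle markers at 3087 to 3143 and 3525 to 3552 (3 of 5 higher), and cardiomyocyte markers at 21313 to 21527 and 21988 to 22313 (5 of 10 higher, 1 lower). Fibroblast markers stood at 5416 to 5484 and 5265 to 5416 (1 of 7 lower), mesothelial markers at 130 and 101 to 109 (1 of 3 tested lower), and erythroid markers at 70 to 78 and 34 to 37 (2 of 3 tested lower). The counts in brackets are of markers that passed limma at an adjusted p under 0.05. By that call, 11.7% of the 12838 genes in the test rose and 11.3% fell. The fibroblast share, 14.3% lower, is near this background. A single call, as in the fibroblast and mesothelial lists, is too little to show a shift of the list. The endothelial sum was carried by Kdr, at 467 and 502 in mock and 536 and 527 with Pdk3. Cdh5, Tie1, Tek and Emcn had ratios of means, Pdk3 over mock, of 0.69 to 0.79. Col1a1 and Col3a1, with ratios of 1.00 and 0.99, carried the fibroblast sum. Dcn, Lum, Postn and Tcf21 had ratios of 0.81 to 0.91, and Pdgfra 1.19. The fall of the mesothelial sum came from Krt19, at 66 and 63 in mock and 30 and 35 with Pdk3. Wt1 had 13 and 9 against 15 and 15, Msln 49 and 52 against 59 and 49, and Upk3b, not tested, 2 and 6 against 5 and 2. The part of these shifts in the results on nuclear transport was not tested. In bulk RNA, fewer cells of a type and less RNA per cell cannot be told apart.

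In the Pdk3 libraries 24 of the 54 members tested rose and 0 fell (limma, adjusted p under 0.05). Among the 12838 genes that entered the test, 11.7% were higher and 11.3% lower, 22.9% together. The members that rose were spread over the scaffold of the pore, its channel and basket, the Ran cycle, 4 importers and 2 exportins. They included none of the 7 rows of the cytoplasmic filaments and none of the 6 importin alpha genes. In lists this short, 0 is near the 11.7% of all genes. In normalised counts the rises were small, from 1.07-fold for Tpr to 1.52-fold for Nup85. Their median log2 fold change was 0.307, against 0.301 for all genes that were higher. Over all 54 members the median log2 fold change was 0.105, and over all genes tested it was -0.00716. At an unadjusted p under 0.05, 28 members were higher and 1 lower (Ipo13). In 35 members both Pdk3 libraries lay above both mock libraries, and in 5 both lay below, where 29.9% and 31.1% of all genes tested did so. A log2 fold change of at least 0.3 together with the call was reached by 13 members, against 5.84% of the genes tested.

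**Figure D1:**
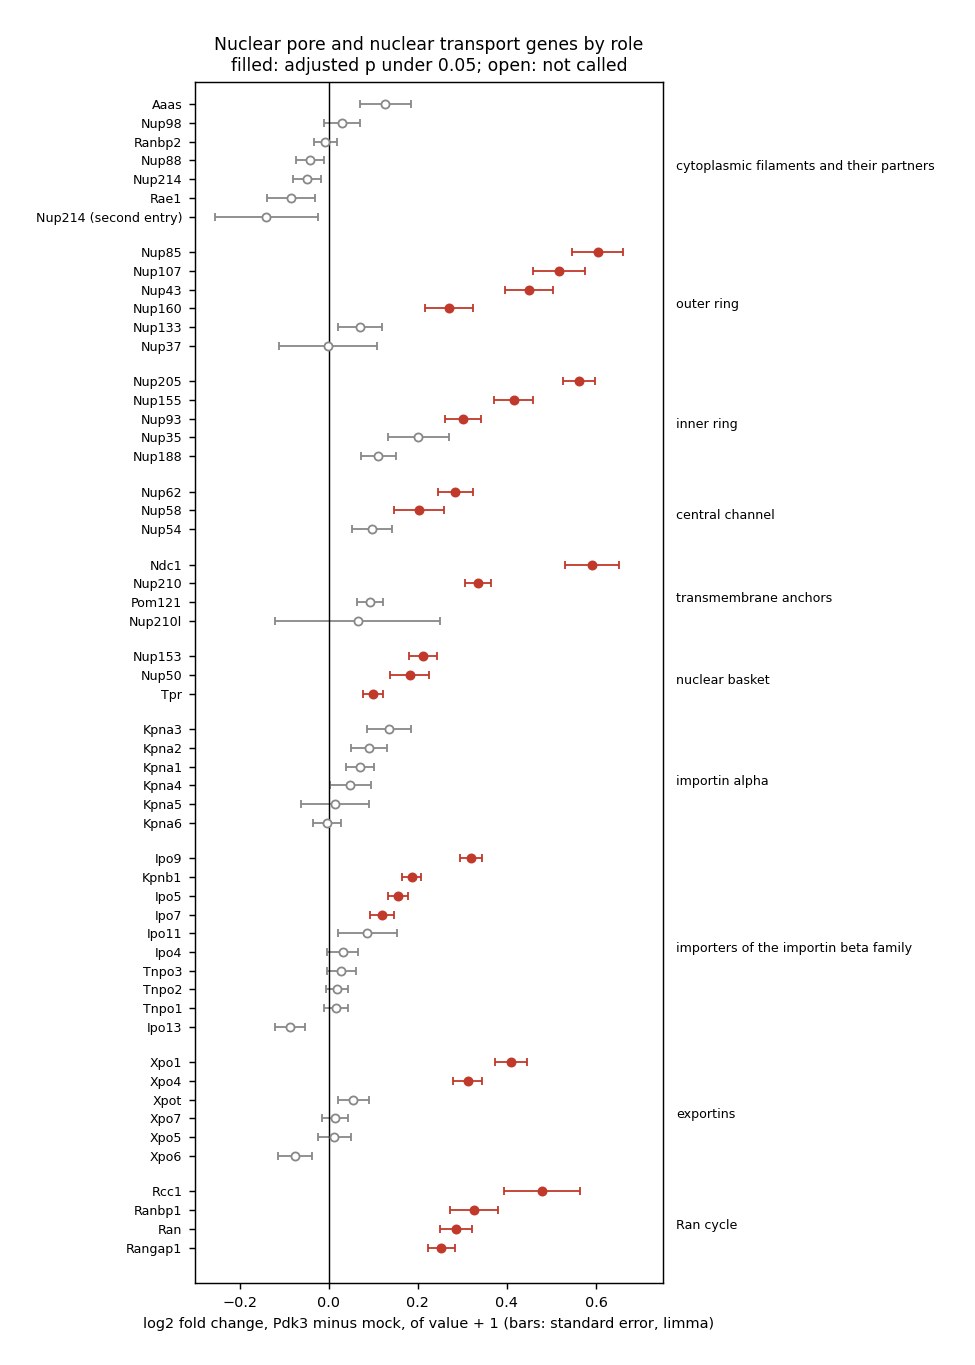
Log2 fold change (Pdk3 minus mock, of the normalised count plus 1) of the 54 members tested, grouped by role, with standard errors from limma (2 libraries a group). Filled points mark the 24 members with an adjusted p under 0.05, all of them to the right of 0. The rows of cytoplasmic filaments and importin alpha hold open points only, and the 4 rows of the Ran cycle hold filled points only. Of all genes tested, 11.7% were called higher.

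These limits apply to all of the calls. With any 1 of the 4 libraries left out (Mock 1, Mock 2, Pdk3 1 or Pdk3 2) limma had 1 residual degree of freedom and called 0 of the 54 members and 0 of all genes, although each of the 24 members stayed above 0 each time and 20 kept an unadjusted p under 0.05 each time. When libraries were scaled to a level median of the ribosomal protein genes, which lowered the median of all genes from -0.00716 to -0.0932, 19 members were higher and 6 lower, beside 929 higher and 3570 lower over the whole table, where the split had been 1496 to 1449. With p held at or above counting noise, 22 members rose and 0 fell, against 8.38% and 7.45% of genes, and without an intensity trend in the variance 12 rose.

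RefSeq promoter windows (build GRCr8, 250 bases before to 50 after the gene's start) were found by symbol for 48 of the 55 members, and since the table has a pair of rows for Nup214 these were 47 promoters. The windows were searched on both strands for 5 words that binding sites of E2F factors, the transcription factors of S phase entry, commonly contain: TTTGGCGC, TTTCCCGC, TTTCGCGC, TTTGCCGC and GGCGGGAA. The last overlaps the second on the other strand and can match the same site. At least 1 of these words stood in 7 of 21 promoters of members that rose (33.3%) and in 2 of 25 of members that were not called (8.0%). The share was 7.03% of 9505 promoters of protein-coding genes tested, 15.7% of 1157 promoters of protein-coding genes that were higher, and 4.77% of all 19005 protein-coding promoters. The 8 stretches below come from the 7 members that rose, each with its word or overlapping words in capitals and 20 bases on either side, so that their letters can be compared. They are written 5′ to 3′ on the strand of the gene.
Ranbp1, chr11:96246781-96246828, plus strand: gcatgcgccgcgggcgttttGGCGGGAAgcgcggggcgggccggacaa
Ranbp1, chr11:96246863-96246911, plus strand: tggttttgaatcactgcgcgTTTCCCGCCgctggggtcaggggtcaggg
Nup210, chr4:125167107-125167155, minus strand: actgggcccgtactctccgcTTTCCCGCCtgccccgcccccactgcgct
Nup62, chr1:104435941-104435989, plus strand: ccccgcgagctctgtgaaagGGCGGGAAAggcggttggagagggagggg
Ipo5, chr15:104412120-104412167, plus strand: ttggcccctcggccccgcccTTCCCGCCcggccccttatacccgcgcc
Nup58, chr15:38583170-38583217, minus strand: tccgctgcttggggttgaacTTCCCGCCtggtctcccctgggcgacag
Nup155, chr2:58928545-58928592, plus strand: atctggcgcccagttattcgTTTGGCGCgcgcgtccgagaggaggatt
Nup50, chr7:117927735-117927782, plus strand: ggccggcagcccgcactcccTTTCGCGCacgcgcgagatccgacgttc

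In Ranbp1 the words began 111 and 29 bases before the gene's start, in Nup58 32, in Nup155 37, in Nup62 67, in Nup210 88, in Ipo5 108 and in Nup50 127. The 9-base matches of Ranbp1, Nup210 and Nup62 each hold both TTTCCCGC and GGCGGGAA. Of the members with the largest rises, Nup85 and Nup205 had none of the words in their windows, and neither did Ran, Rcc1 or Xpo1. For Nup107, Ndc1 and Kpnb1 no window was matched. Other motifs differed less between members that rose and members not called. The CCAAT box (CCAAT) stood in 42.9% and 52.0% of their promoters, against 37.6% of protein-coding genes tested. For the E-box (CACGTG) the shares were 14.3% and 16.0%, against 9.25%, and for the core of the NRF1 motif (GCATGCGC) 14.3% and 8.0%, against 5.23%. The CHR element of mitotic genes (TTTGAA or TTCGAA) stood in 23.8% and 36.0%, against 13.4%. Among protein-coding genes that were higher, the shares were 44.9% for the CCAAT box, 8.99% for the E-box, 5.53% for the NRF1 core and 20.3% for the CHR. These matches describe the letters of the windows and show no binding.

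The outer ring, built from Y-shaped complexes, had the member with the largest rise. Nup85, a subunit of the short arm of the Y (chromosome 10, 104118945 to 104137319, rn6), had values of 170 and 169 in mock and 255 and 261 with Pdk3. The group means were 169.5 ± 0.7 and 258.0 ± 4.2 (SD, n = 2 each), 1.52-fold apart, or 0.60 ± 0.06 on the log2 scale (SE, limma adjusted p = 0.000415). The groups were well apart. Nup107, in the stem of the Y (chromosome 7, 60781729 to 60825242), went from 204 and 211 to 287 and 308, a 1.43-fold rise (adjusted p = 0.00096). Nup43, a small subunit on the short arm (chromosome 1, 1771710 to 1782091), had 224 and 239 in mock and 317 and 316 with Pdk3, a 1.37-fold rise (adjusted p = 0.0012). Both showed no overlap between groups, as did 29.9% of all genes tested in this direction. Nup160, at the long arm, was 230 and 224 in mock and 268 and 280 with Pdk3, a 1.21-fold rise (adjusted p = 0.0116).

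The other pair of the outer ring did not pass. Nup133, which joins one Y complex to the next, had 258 in both mock libraries and 274 and 268 with Pdk3 (log2 fold change 0.07, adjusted p = 0.352). Nup37 had 112 and 101 in mock and 114 and 99 with Pdk3, the same mean of 106.5 in both groups. Its locus overlaps that of Parpbp on the opposite strand, which had 85 and 82 in mock and 144 and 145 with Pdk3, and the strand setting of the counting is not given in the sources used here. As a group, 4 of the 6 outer ring genes among the members rose, with a median log2 fold change of 0.36. This count depends on the rule for members. Sec13 and Ahctf1, also of the Y complex, lie outside it and did not pass (log2 fold changes 0.08 and 0.09). Nup96, another subunit of the Y, is cut from the product of Nup98 and has no row of its own. Nup98 is counted below with the cytoplasmic filaments and was not called (log2 fold change 0.03).

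In the inner ring 3 of 5 genes rose, with a median of 0.301 on the log2 scale. Nup205, a large scaffold protein (chromosome 4, 62703779 to 62773923), had 489 and 510 in mock and 748 and 727 with Pdk3. Its means were 499.5 ± 14.8 and 737.5 ± 14.8 (SD, n = 2 each), with a log2 fold change of 0.56 ± 0.04 and the smallest adjusted p among the members (limma, 6.19e-05). Its paralog Nup188, which occupies an equivalent place in the ring, had 677 and 670 in mock and 702 and 754 with Pdk3. That is a log2 fold change of 0.11 (adjusted p = 0.0782), below that of Nup205, although the difference between the paralogs was not tested. Nup155, which links the ring to the membrane (chromosome 2, 57206613 to 57258295), went from 454 and 451 to 627 and 581 (1.33-fold higher, adjusted p = 0.000622). Nup93, which joins the ring to the channel proteins (chromosome 19, 11159774 to 11263980), went from 399 and 419 to 504 in both Pdk3 libraries (1.23-fold, adjusted p = 0.00191). Both Pdk3 libraries lay above both mock libraries in 29.9% of all genes tested and in all 5 inner ring genes. The last of them, the membrane-binding Nup35, had 145 and 147 in mock and 168 in both Pdk3 libraries without passing (adjusted p = 0.0753).

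Among the transmembrane proteins that anchor the pore, 2 of 4 rose. Ndc1, which is needed to insert pores in the envelope (chromosome 5, 126976456 to 127022939), had 262 and 244 in mock and 398 and 365 with Pdk3, a log2 fold change of 0.59 ± 0.06 (adjusted p = 0.000587). Nup210, also known as gp210 (chromosome 4, 122644135 to 122741110), rose from 796 and 824 to 1034 and 1009, or by 0.33 on the log2 scale (adjusted p = 0.00027). The groups of both genes were separate, with Pdk3 above mock, as in 29.9% of all genes tested. Pom121, the anchor that acts early in assembly between mitoses, had 787 and 760 in mock and 830 and 819 with Pdk3 (log2 fold change 0.09, adjusted p = 0.061). Nup210l, a relative of Nup210 known from the testis, had only 33 and 29 in mock and 35 and 30 with Pdk3, where a change of this size is not detectable.

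**Figure D2:**
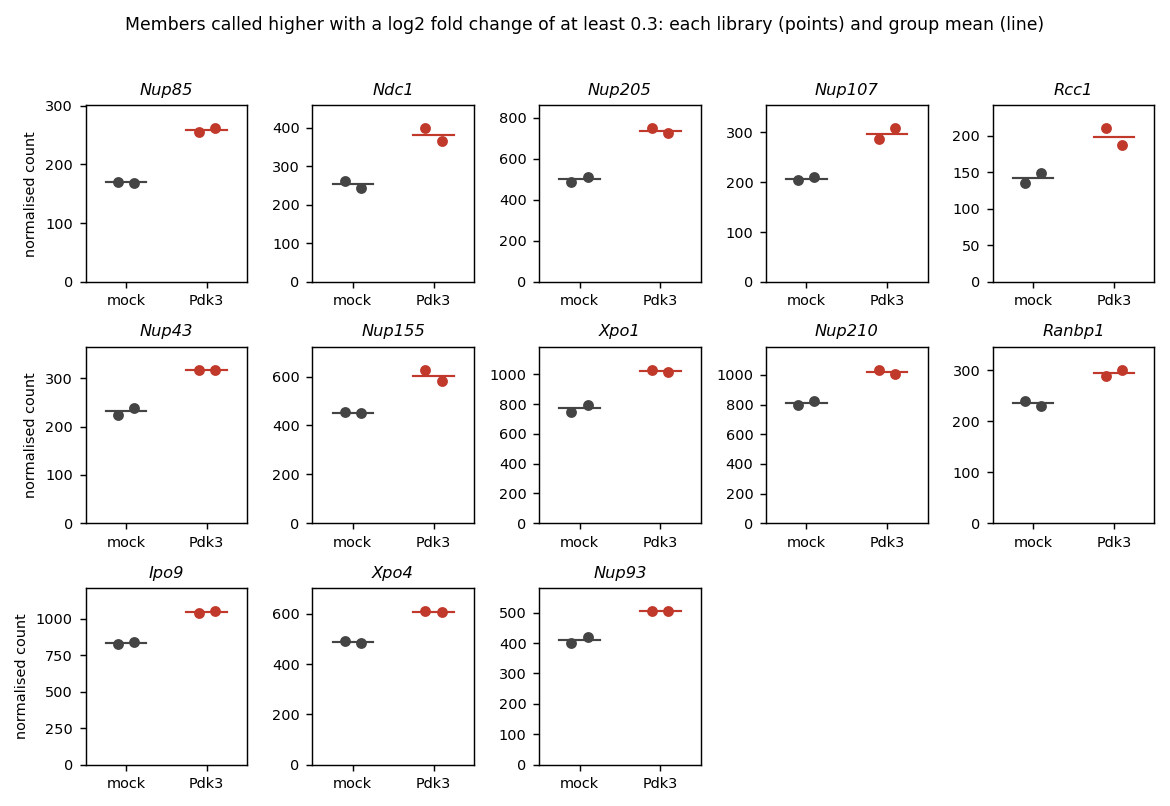
Normalised counts of the 13 members called higher with a log2 fold change of at least 0.3, with each library as a point and the group mean as a line, on axes that start at 0. In every panel both Pdk3 points lie above both mock points, as for Nup85 (170 and 169 against 255 and 261). The panels were chosen by the call, and 29.9% of all genes tested were separated in this direction.

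In the central channel 2 of the 3 genes tested rose. Nup62, whose repeats line the channel, had 495 and 488 in mock and 580 and 618 with Pdk3 (1.22-fold, adjusted p = 0.00256). Its partner Nup58 had 297 and 300 against 360 and 328, with an adjusted p of 0.037 that became 0.0698 when p was held at counting noise. Nup54, which completes the channel complex with them, had 324 and 329 against 343 and 356 and did not pass (log2 fold change 0.10, adjusted p = 0.159). In the nuclear basket all 3 genes rose, by small amounts. Nup153, which docks the basket on the ring, had 970 and 953 in mock and 1145 and 1082 with Pdk3 (1.16-fold, adjusted p = 0.00339). Tpr, the long coiled coil that forms the basket, went from 1781 and 1840 to 1956 and 1924 (1.07-fold, adjusted p = 0.0173). Nup50, a mobile basket protein that also acts with importin alpha, had 342 and 347 against 400 and 382. Its adjusted p of 0.0229 became 0.0859 when p was held at counting noise. None of the 3 basket genes was called without an intensity trend or without a filter on low values, and Tpr and Nup50 were not called with ribosomal protein scaling.

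None of the 7 rows for the cytoplasmic filaments and their partners passed, and their median log2 fold change was -0.0415. Ranbp2, the giant filament protein that binds Ran and acts as a SUMO ligase, had 1695 and 1742 in mock and 1742 and 1678 with Pdk3, and the groups overlapped. Its log2 fold change was -0.01 ± 0.03 (adjusted p = 0.865). Nup88 had 617 and 618 against 594 and 606, and its partner Nup214 had 756 and 748 against 712 and 743, both slightly lower with Pdk3 without passing (adjusted p = 0.379 and 0.32). Another row with the symbol Nup214, at another place on chromosome 3, had 100 and 101 against 83 and 100, and reads that fit both rows may have been split between them. Rae1, an mRNA export factor that binds Nup98, had 310 and 309 against 304 and 280. Nup98 had 1051 and 1005 against 1092 and 1009, with overlap. Aaas, which encodes aladin, had the highest log2 fold change of the group, with 248 and 247 against 281 and 260 (0.13, adjusted p = 0.157). Scaled to ribosomal protein genes, Ranbp2, Nup88, Rae1 and the first Nup214 row passed as lower, in a setting where most called genes of the whole table were lower.

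**Figure D3:**
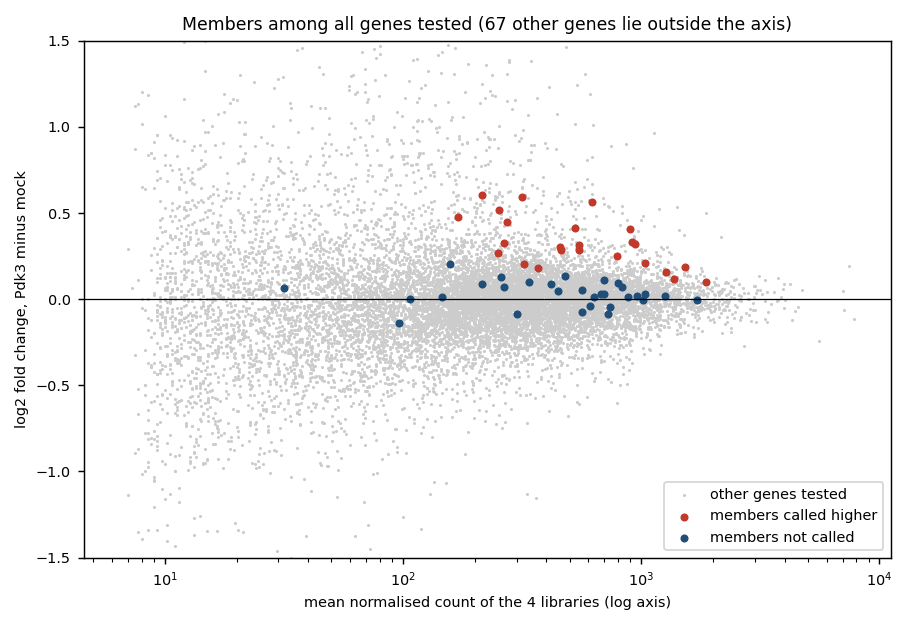
Mean normalised count of the 4 libraries (log axis) against log2 fold change for all 12838 genes tested, with members in colour. Members called higher lie above 0 at means between those of Rcc1 and Tpr, and 67 other genes lie beyond the axis limits of 1.5.

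All 4 genes of the Ran cycle rose, and their median log2 fold change was 0.306. Rcc1, the chromatin-bound factor that loads Ran with GTP (chromosome 5, 150509040 to 150525254), had 136 and 149 in mock and 210 and 188 with Pdk3. The means were 142.5 ± 9.2 and 199.0 ± 15.6 (SD, n = 2 each; 1.40-fold, limma adjusted p = 0.00661). Ranbp1, which helps to release Ran from carriers in the cytoplasm (chromosome 11, 86890585 to 86898818), had 240 and 231 against 290 and 301, a rise of 0.33 on the log2 scale (adjusted p = 0.00467). Ran itself had 409 and 420 against 507 and 504 (1.22-fold, adjusted p = 0.00168). Rangap1, which triggers GTP hydrolysis by Ran at the cytoplasmic face, had 720 and 725 against 845 and 877 (1.19-fold, adjusted p = 0.00112). In all 4 genes both Pdk3 libraries lay above both mock libraries, as in 29.9% of all genes tested. The 4 calls held with p at or above counting noise. Without an intensity trend Rcc1 and Rangap1 were not called, and without a filter on low values Rcc1 was not.

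Of the 22 carriers 6 rose, 27.3% against 11.7% of all genes tested, with a median log2 fold change of 0.0518. None of the 6 importin alpha genes, the adaptors that bind classical nuclear localisation signals, passed the test. For a list of 6 genes this is near the share of all genes. Kpna3 had the highest log2 fold change of these, with 460 and 454 in mock and 478 and 527 with Pdk3 (0.13, adjusted p = 0.094). Kpna2, the form linked to dividing cells, had 413 and 396 against 435 and 426 (log2 fold change 0.09, adjusted p = 0.158). Kpna6 had 995 and 1041 against 1000 and 1030, with the groups overlapping. Kpna1, Kpna4 and Kpna5 had log2 fold changes between 0.01 and 0.07.

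Of the 10 importers of the importin beta family, 4 rose, 40.0% against 11.7% of all genes tested. Ipo9, an importer of histones and actin (chromosome 13, 52207435 to 52256196), had 830 and 844 in mock and 1038 and 1051 with Pdk3, a log2 fold change of 0.32 ± 0.03 (adjusted p = 0.000179). Kpnb1, the importin beta that carries importin alpha and its cargo, went from 1445 and 1414 to 1637 and 1617 (a 1.14-fold rise, adjusted p = 0.000999). Ipo5 and Ipo7, which import ribosomal proteins and histones among other cargo, rose 1.11-fold and 1.09-fold. Ipo5 had 1206 and 1193 against 1353 and 1319, and Ipo7 had 1284 and 1349 against 1422 and 1437. The remaining 6 did not pass, with log2 fold changes from -0.09 for Ipo13 to 0.09 for Ipo11. Tnpo1, the receptor of many RNA-binding proteins, had 1266 and 1227 against 1239 and 1282, and Tnpo3, which imports SR splicing factors, had 693 and 687 against 690 and 718. Ipo13, which carries cargo both ways, had 727 and 766 against 701 and 704, with both Pdk3 libraries lower (log2 fold change -0.09, adjusted p = 0.106).

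Of the 6 exportins, 2 rose, 33.3% against 11.7% of all genes tested. Xpo1, the main exporter of proteins with leucine-rich export signals (chromosome 14, 108007724 to 108049660), had 745 and 797 in mock and 1029 and 1018 with Pdk3. Its means were 771.0 ± 36.8 and 1023.5 ± 7.8 (SD, n = 2 each), or 0.41 ± 0.04 on the log2 scale (limma adjusted p = 0.000267). Xpo4, which exports the translation factor eIF5A among others (chromosome 15, 37835580 to 37926715), went from 494 and 486 to 610 and 607 (a 1.24-fold rise, adjusted p = 0.000622). The exporters of particular RNAs did not pass. Xpo5, which exports microRNA precursors, had 615 and 647 against 646 and 627, and Xpot, which exports tRNA, had 543 and 562 against 568 and 580. Xpo7 had 884 and 874 against 905 and 870, and Xpo6, the exporter of actin, had 582 and 580 against 535 and 568 (log2 fold change -0.08, adjusted p = 0.199).

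Of 36 other pore, transport and mRNA export genes tested, 8 rose and 3 fell, with a median of 0.0764 on the log2 scale. These are 22.2% and 8.33%, against 11.7% and 11.3% of all genes tested. Cse1l, the exportin that returns importin alpha to the cytoplasm, rose from 801 and 858 to 942 and 955 (adjusted p = 0.00826). Alyref, an adaptor of mRNA export, had 246 and 242 against 296 and 288 (adjusted p = 0.0101). Nutf2, the carrier of Ran into the nucleus, had 401 and 394 against 462 and 441 (adjusted p = 0.0178, and 0.0548 with p held at counting noise). Rangrf, a Ran-binding protein, had 164 and 150 against 191 and 199 (adjusted p = 0.0214). The falls included Mcm3ap and Pcid2, both of the TREX-2 export complex at the basket. Mcm3ap had 803 and 802 against 684 and 681 (adjusted p = 0.00107), and Pcid2 had 214 and 208 against 155 and 173 (adjusted p = 0.0125). Ranbp10 was also lower, with 816 and 814 against 692 and 705. The scaffold protein Sec13 and Ahctf1, which seeds pore assembly on chromatin, did not pass (log2 fold changes 0.08 and 0.09). With p held at counting noise the list had 4 higher and 3 lower members, and without an intensity trend 0 and 0.

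The nuclear lamina and envelope were split. Of 25 genes tested, 5 rose and 4 fell, with a median of -0.00434 on the log2 scale. The B-type lamins and their partners were among those that rose. Lmnb1 had 240 and 257 in mock and 438 and 432 with Pdk3 (log2 fold change 0.81 ± 0.05, adjusted p = 5.88e-05), and Lmnb2 had 115 in both mock libraries and 191 and 193 with Pdk3 (0.73 ± 0.07, adjusted p = 0.00044). Tmpo, a lamina-associated protein, rose from 417 and 453 to 631 and 617, and Vrk1, the kinase that frees chromatin from the envelope, from 140 and 131 to 187 and 199. Lmna, which encodes the A-type lamins, had 841 and 848 against 867 and 865 (log2 fold change 0.04, adjusted p = 0.351). Lower were Lpin1, a phosphatidate phosphatase, with 484 and 497 against 393 and 404 (adjusted p = 0.00173), and Chmp7, a factor of envelope sealing, with 477 and 482 against 384 and 405 (adjusted p = 0.00309).

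In a list of 20 spindle assembly factors and other mitotic genes, drawn up around Ran and importins, 19 rose, with a median log2 fold change of 0.614. It was not limited to factors that importins hold and Ran releases, and whether each product is such a cargo was not tested. This list overlaps the mitotic genes already known to be higher in these libraries and is no independent evidence. Kif11 had 284 and 283 in mock and 508 and 536 with Pdk3 (log2 fold change 0.88, adjusted p = 2.35e-05), and Tpx2, the classical importin-regulated spindle factor, had 343 and 363 against 539 and 529 (0.60, adjusted p = 0.00011). Incenp, a subunit of the chromosomal passenger complex, had 235 and 263 against 454 and 472 (0.89). Bub1b, a checkpoint kinase, had 175 and 176 against 318 and 328, and Cenpe, a kinetochore motor, 453 and 448 against 651 and 689. The exception was Numa1, with 1591 and 1586 against 1475 and 1408 (-0.14, adjusted p = 0.00821). Genes of SUMO conjugation, the modification that Ranbp2 attaches and Rangap1 carries, had 2 of 15 higher and 1 lower, with a median of 0.0443. These shares, 13.3% and 6.67%, were near the 11.7% and 11.3% of all genes tested. Sumo3 had 303 and 314 against 362 and 356 (adjusted p = 0.0126), Uba2 185 and 179 against 214 and 208 (adjusted p = 0.0448, and 0.16 with p held at counting noise), and the ligase Pias3 439 and 397 against 360 and 354 (adjusted p = 0.0226).

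**Figure D4:**
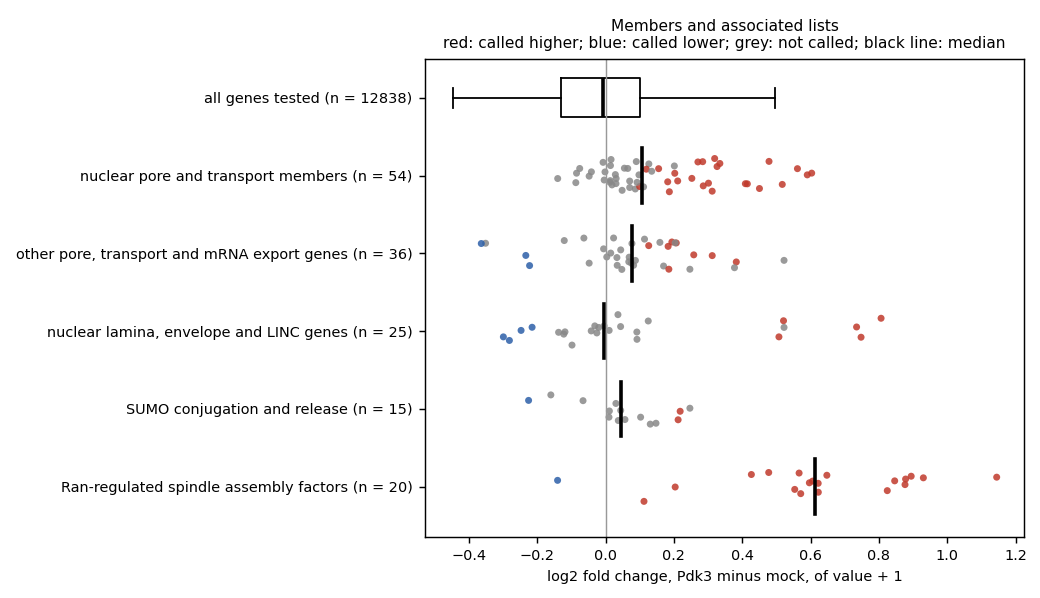
Log2 fold change (Pdk3 minus mock) of the members and of the 4 associated lists, 1 point a gene, with the list's median as a black line, and the distribution of all genes tested as a box (quartiles, with whiskers at the 5th and 95th percentile). Medians were 0.105 for the members, 0.0764 for other pore and transport genes, -0.00434 for the lamina and envelope, 0.0443 for SUMO genes and 0.614 for spindle factors.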

How the data were processed

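The 4 libraries were made from total RNA as stranded mRNA libraries, per the labels' protocols. Per the submitters' processing notes the tools were FastQC, Trimmomatic 0.39, STAR 2.6.1d, featureCounts 1.6.5 from Subread and DESeq2 1.26.0, with genome build rn6. The deposited table holds 16290 genes. Its values are used as a score: gene counts in whole numbers left by the authors' normalisation and rounding, so no count model was fitted. Of the filter on genes, the strand setting and the treatment of duplicate reads the sources used here say nothing. The highest value in the table was 8169. Removal of duplicate reads would shrink the folds of genes with many reads, and whether it took place was not tested.

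The test was limma 3.58.1 (R 4.3.3) on log2 of the value plus 1, by eBayes with an intensity trend, with group as the single term and all 4 libraries. It took in 12838 genes that reached 10 in 2 or more libraries, two-sided, with p adjusted by Benjamini-Hochberg over all of them and a threshold of 0.05. The residual degrees of freedom were 2, the prior 5.56, and an exact permutation of 2 against 2 libraries cannot go below p = 0.333. Fold changes on this scale understate the change of low genes. Folds printed as "-fold" are ratios of group means of normalised counts. Scaling factors were estimated from whole numbers skipped or doubled in the table, as division followed by rounding leaves, and used to undo the scaling. To hold p at counting noise, any limma p smaller than that of an exact binomial test on the group totals of reads was raised to it. The fit was tested on data simulated with counting noise, which is wider than the spread between these replicates. It called 52% of rises of 1.25-fold, 86% of 1.5-fold and 100% of 2-fold, and 42% of falls of 1.25-fold. Only 50 genes per size and direction were changed among 12831, whereas 22.9% of genes were called in the data. The shares recovered can therefore not be carried over to the members. Members that did not pass had log2 fold changes from -0.14 to 0.201, and small changes among them may have been missed.

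Every member could be named, grouped by role. Values in all libraries were printed for members past the threshold with a log2 fold change of at least 0.3 in size, for the extremes of each role and for the highest mean of each role, and most other members were added. From each associated list up to 4 members of the majority direction and 2 of the other were named, by smallest p. Outside this rule, Pcid2, Sec13, Ahctf1, Lmna, Tpx2 and Parpbp were named for their function or position after their values were seen. The endothelial, fibroblast and mesothelial markers named are all those of their lists in the table. The members and lists were chosen with earlier results of these data known. Start and end of genes are those of the table (rn6), and promoter sequences are RefSeq's (GRCr8). Gene levels were not compared with each other, since no transcript lengths were used.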

Additional observations from a re-analysis of the deposited data

How the results depend on the processing

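Of the 24 members called higher, 12 were called without an intensity trend (all but Nup153, Tpr, Kpnb1, Ipo7, Ipo5, Nup58, Nup50, Nup93, Nup160, Rangap1, Nup62 and Rcc1), 18 without a filter on low values (Nup153, Tpr, Ipo7, Nup58, Nup50 and Rcc1 lost), 22 with p held at counting noise (Nup58 and Nup50 lost) and 19 with ribosomal protein scaling (Tpr, Ipo7, Ipo5, Nup58 and Nup50 lost), where 6 members were called lower (Ranbp2, Nup88, Xpo6, Ipo13, Rae1 and Nup214). With TMM scaling, and with a minimum value of 50, Pom121, Kpna3 and Nup188 were called as well. Both other pseudocounts gave 24. A change of at least 0.3 was met by 13 members, and a false discovery rate of 0.01 by 19. Requiring a digit after each start drops Xpot, which was not called. The cause of these moves was not tested. Nup58 and Nup50, with about 300 to 400 normalised counts, were lost at counting noise, without a trend, without a filter and with ribosomal protein scaling.

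The replicate number ties no samples in the labels, and deviations of same-numbered libraries correlated at 0.0384 over 12838 genes, so the numbers were not taken as pairs. With a replicate block 24 members were called higher, 1374 genes in all were higher and 1298 lower, and SUMO genes had 1 higher. With a library left out, each count of calls was 0, and the median of the members lay between 0.108 and 0.126. It was 0.116 with TMM scaling and 0.0188 with ribosomal protein scaling.

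Counts over all genes tested (1496 higher, 1449 lower) became 929 and 3570 with ribosomal protein scaling, 737 and 539 without a filter, 526 and 325 without a trend, 1076 and 956 with p held at counting noise, 766 and 576 at a false discovery rate of 0.01, and 750 and 586 with a change of at least 0.3. Other pore and transport genes (8 higher, 3 lower) became 3 and 5 with ribosomal protein scaling, 0 and 0 without a trend, and 2 and 1 with a change of at least 0.3. For them 4 were higher at counting noise, 1 without a filter and 1 at a rate of 0.01, and 5 lower with a minimum of 50. Lamina and envelope genes lower (4) became 1 without a trend and 0 with a change of at least 0.3. SUMO genes (2 higher, 1 lower) became 0 and 3 with ribosomal protein scaling, 1 and 0 without a filter, and 0 and 0 without a trend, at a rate of 0.01 and with a change of at least 0.3, with 1 higher at counting noise and 2 lower with a minimum of 50. The spindle factor that was lower, Numa1, was not called without a filter, without a trend or with a change of at least 0.3 (0 lower each).

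Signs turned only in members that were not called. With TMM scaling Kpna6 stood at 0.00641, Nup37 at 0.00874 and Ranbp2 at 0.00319. With ribosomal protein scaling, Ipo4 stood at -0.0557, Kpna1 at -0.0161, Kpna4 at -0.0382, Kpna5 at -0.0719, Nup133 at -0.0159, Nup210l at -0.0193, Nup98 at -0.0563, Tnpo1 at -0.0707, Tnpo2 at -0.0679, Tnpo3 at -0.058, Xpo5 at -0.0739, Xpo7 at -0.0731 and Xpot at -0.0315. With 1 library left out, the ranges were -0.0366 to 0.0285 for Kpna6, -0.0343 to 0.0197 for Ranbp2, -0.102 to 0.0992 for Nup37, -0.0148 to 0.042 for Xpo7, -0.00852 to 0.0407 for Tnpo1, -0.0237 to 0.0493 for Xpo5, -0.00113 to 0.0631 for Ipo4, -0.0265 to 0.0874 for Nup98, -0.0249 to 0.0536 for Kpna5 and -0.043 to 0.173 for Nup210l.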
